A study of Mus musculus with 18 samples.

Results

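The genes described here are 10 markers of the 2-cell-like state, taken by their symbols: the Zscan4 cluster (Zscan4a, Zscan4b, Zscan4c, Zscan4d, Zscan4e and Zscan4f), Zfp352, Tcstv1, Tcstv3 and Tmem92. Of these 10 symbols, 9 were among the 24116 genes of the count table, and Zscan4e was not analysed here. The 5 measured Zscan4 genes and Tmem92 were among the 14901 genes with enough counts to be tested. Zfp352, Tcstv1 and Tcstv3 fell under that filter, so their values are described without a place in the main tests.

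RNA was sequenced from mouse embryonic stem (ES) cells of strain 129S6/SvEvTac in 18 libraries. Wild-type cells gave 8 libraries. Cells with a knockout of Snf2h (ko) gave 5. Ko cells that again carried wild-type Snf2h (wild-type add-back) gave 3, and ko cells that carried Snf2h mutated in its ATPase (mutant add-back) gave 2, numbered 1 and 3. Both add-back groups therefore keep the knockout of the gene itself. Cells were kept in serum with leukemia inhibitory factor on gelatin, but the ko line and the mutant add-back line spent at least their first passages after thawing on embryonic fibroblast feeders. Nothing in the labels tells separate cultures from repeat libraries or gives the number of clones behind a group, so p-values measure only the spread between these libraries, which may be technical.

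In the mouse embryo these genes switch on together when the zygotic genome is first transcribed at the 2-cell stage and are then shut off. In ES cultures they are silent in most cells and active in a rare, passing state in which the transcription factor Dux and retroviral promoters are also active. Zscan4 proteins carry a SCAN domain and zinc fingers and are known for lengthening telomeres, whereas Snf2h, encoded by Smarca5, is the motor of ISWI complexes that slide and space nucleosomes.

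The 5 measured Zscan4 genes lie on chromosome 7 within 608 kb (GRCm38, 10794241 to 11402318), and RefSeq places no other gene over any of the 9 measured members. Zscan4a is annotated as a transcribed pseudogene and the other 4 as protein coding. Tmem92 lies on chromosome 11 (94777217 to 94782703), Zfp352 on chromosome 4 (90218820 to 90225687), Tcstv1 on chromosome 13 (119893387 to 119894785) and Tcstv3 on the same chromosome (120316862 to 120318261). RefSeq promoters (GRCm38.p6) were matched for Zscan4b, Zscan4c, Zscan4d, Zscan4f and Zfp352. The 4 Zscan4 promoters were 95.3% to 99.3% identical in pairs over the bases that aligned. The stretch from 20 bases before a Dux-like motif to 10 bases after a TATA box is shown for each, because it shows how alike the promoters of these copies are. Capitals mark a loose form of the double homeobox site, spelled TNAT, NN and AATCA without gaps (N is any base), and the box TATAAAA.
Zscan4b, chr7:10905065-10905161, minus strand: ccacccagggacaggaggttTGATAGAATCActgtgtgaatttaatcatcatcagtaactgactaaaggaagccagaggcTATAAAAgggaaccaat
Zscan4c, chr7:11005611-11005707, plus strand: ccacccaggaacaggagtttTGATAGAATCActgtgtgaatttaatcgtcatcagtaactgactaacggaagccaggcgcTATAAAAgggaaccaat
Zscan4d, chr7:11166197-11166293, minus strand: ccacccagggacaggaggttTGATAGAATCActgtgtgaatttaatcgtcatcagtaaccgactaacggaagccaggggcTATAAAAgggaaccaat
Zscan4f, chr7:11397804-11397900, plus strand: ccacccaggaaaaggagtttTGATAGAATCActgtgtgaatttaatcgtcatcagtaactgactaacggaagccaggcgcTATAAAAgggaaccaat
The motif begins 91 bases before the annotated start in Zscan4b and Zscan4f, 114 bases before it in Zscan4c and 125 bases before it in Zscan4d. Searched on both strands, it was present in 319 of 32851 RefSeq promoters of the same length (0.971%), and the TATA box in 1801 (5.48%). The letters TGCACAC, a short form of the site bound by Zscan4 proteins, were in none of the 5 member promoters and in 1444 of all promoters (4.40%). Neither the Dux-like motif nor the TATA box was in the Zfp352 window. The 4 promoters are copies of one another, so their shared motif counts as a single observation.

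The copies are alike in their transcripts too. Of all 50-base windows in the GENCODE transcript, 95.3% in Zscan4f, 90.3% in Zscan4b, 85.5% in Zscan4c, 63.6% in Zscan4a and 49.6% in Zscan4d also occur in another gene. How reads that fit several copies were counted is not given in the sources used here, so the split between single Zscan4 genes is uncertain and their sum is given as well. For the same reason, counts of Zscan4 genes called are not counts of independent genes. For Tcstv1 and Tcstv3 the shares were 16.8% and 31.4%.

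Library totals ran from 15.3 to 37.0 M counts and fell into 3 depth sets that cut across the wild-type and ko groups. The low set (15.3 to 19.0 M) held 11 libraries, among them wild type 6 to 8, ko 3 to 5 and all add-back libraries. The middle set (22.9 to 25.3 M) held wild type 1 and 2 and ko 1 and 2, and the high set (31.0 to 37.0 M) held wild type 3 to 5. The labels name no batch, so the results on the members are given over all libraries and within the sets. Smarca5 measured 140 to 216 CPM (counts scaled to library size) in wild type, 8.72 to 10.1 in ko, 83.8 to 90.2 in the wild-type add-back and 48.4 to 68.6 in the mutant add-back. Its mean in the wild-type add-back was 46.5% of wild type. The 6 ES cell markers were expressed in every library, with summed levels from 3370 to 5038 CPM. Their lowest sums, 3370 and 3393 CPM, were those of ko 1 and ko 2.

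The Zscan4 genes were low in ko. Summed over the 5 genes, wild-type libraries measured from 14.4 CPM through a median of 27.8 CPM to 36.4 CPM. The 5 ko libraries measured 1.18, 1.35, 9.04, 7.99 and 8.19 CPM in the order of their numbers. No ko library reached any wild-type library, and the first pair of ko libraries stood far below the other 3. In bulk RNA, fewer 2-cell-like cells and less RNA in each such cell cannot be told apart.

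All 6 tested members were lower in ko than in wild type at an adjusted p under 0.05, where 28.2% of all tested genes were lower and 55.0% were called in either direction. With the libraries of a group and depth set summed and counted as 1 sample, only 2 of them, Zscan4c and Zscan4f, were called. Zscan4c, with the highest mean CPM of the cluster, was at 3.68, 7.47 and 9.26 CPM in wild type (lowest, median and highest) and at 0.394, 0.425, 2.15, 1.75 and 2.09 CPM in ko. Its log2 fold change was −2.32 ± 0.37 (SE; edgeR, adjusted p = 3.68e-05). The changes of Zscan4a (−2.33 ± 0.43), Zscan4d (−2.32 ± 0.49), Zscan4b (−2.24 ± 0.42) and Zscan4f (−2.15 ± 0.37) were of nearly the same size. The ko and wild-type libraries did not overlap for any of the 5, but how often this holds over all tested genes was not counted. Per length, their wild-type levels were also close, from 2.14 ± 0.77 RPKM (SD, n = 8) for Zscan4d to 3.02 ± 0.98 for Zscan4f.

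**Figure D1:**
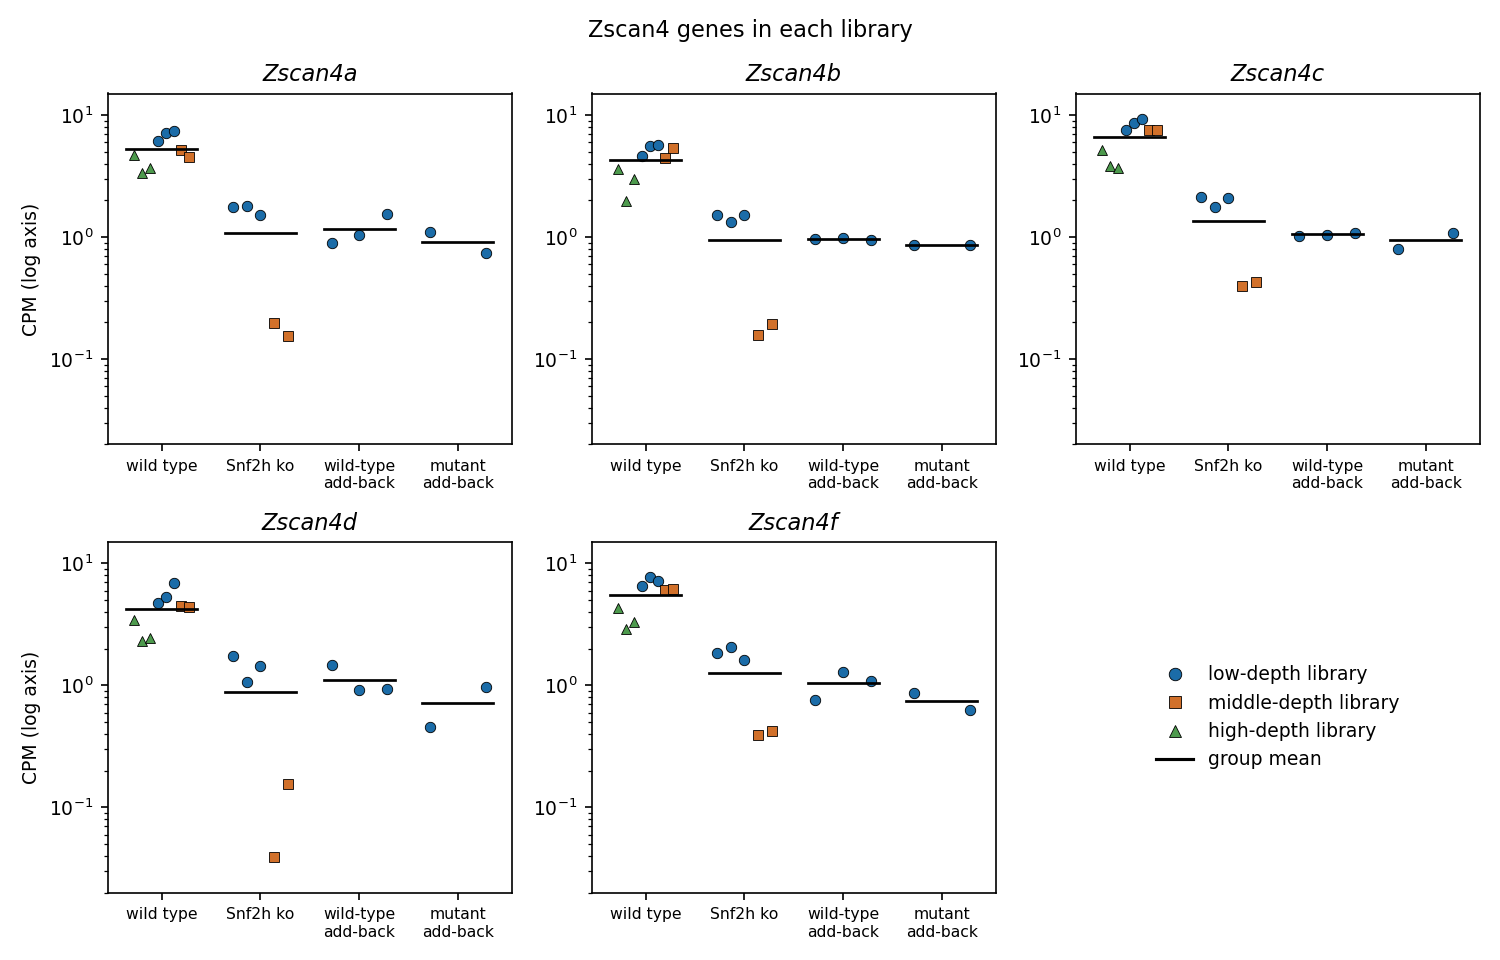
CPM (log axis) of the 5 Zscan4 genes in each library by group, with symbols for the depth set and a bar for the group mean. All wild-type libraries lie above all others, and the 2 middle-depth ko libraries lie lowest.

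Tmem92, which encodes a predicted membrane protein, was at 0.305, 0.532 and 0.810 CPM in wild type (lowest, median and highest) and at 0.118, 0.155, 0.282, 0.423 and 0.174 CPM in ko. The libraries overlapped, and the log2 fold change was −1.33 ± 0.42 (edgeR, adjusted p = 0.0116). This rested on 5 to 28 counts per wild-type library.

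The 3 members under the filter had at most 12 counts in any library. Zfp352, a zinc finger gene, had 1 to 9 counts in wild type and 0 to 4 in ko. Tcstv1 and Tcstv3, members of a family first found in 2-cell embryos, had 2 to 11 and 4 to 12 counts in wild type and 0 to 6 and 0 to 7 in ko. With no filter, edgeR's quasi-likelihood test called Tcstv3 lower in ko (log2 −1.56 ± 0.53, adjusted p = 0.0227) and Zfp352 as well (−1.56 ± 0.59, adjusted p = 0.0372), but not Tcstv1 (−0.97 ± 0.52, adjusted p = 0.142). Wild type and ko overlapped for all 3. At 0.111 to 0.429 RPKM in wild type, Zfp352, Tmem92, Tcstv1 and Tcstv3 were all below each Zscan4 gene per length.

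**Figure D2:**
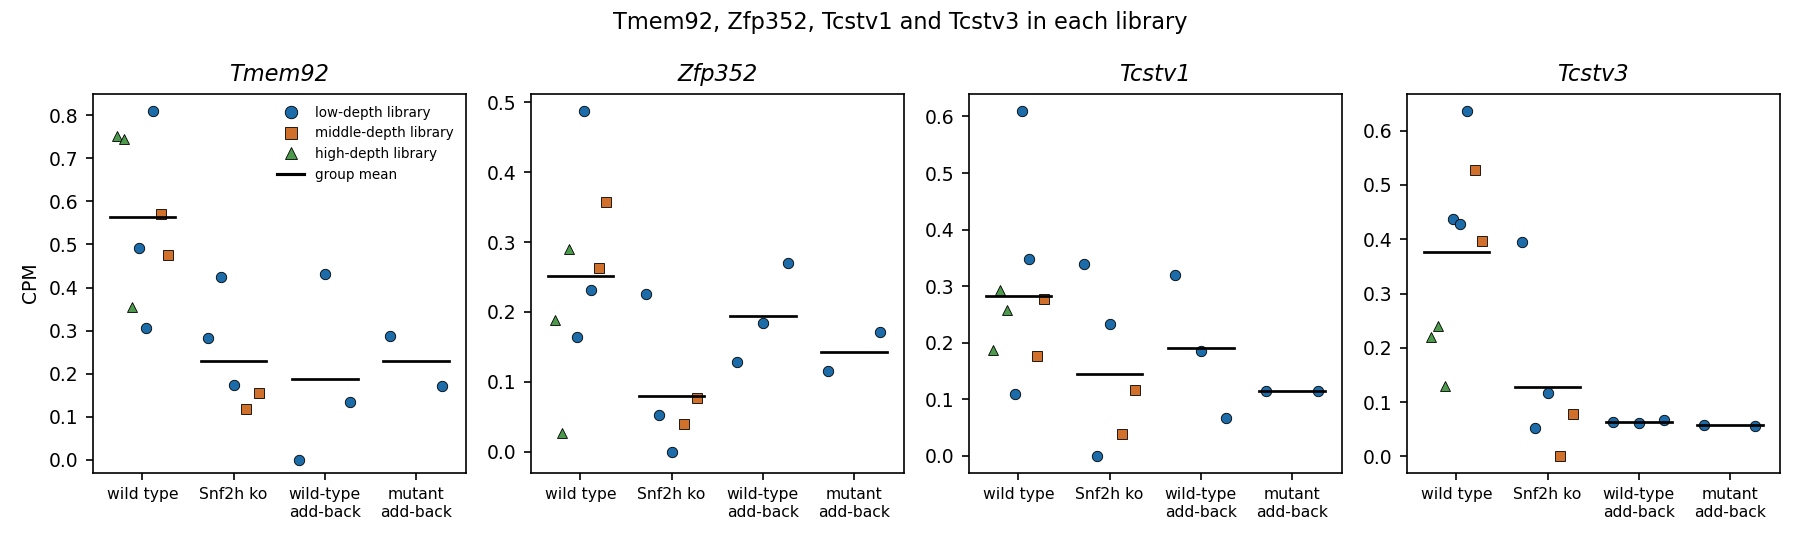
CPM of Tmem92, Zfp352, Tcstv1 and Tcstv3 in each library by group, with symbols for the depth set and a bar for the group mean. Wild type and ko overlap in each panel, and all wild-type add-back libraries lie below wild type only for Tcstv3.

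The size of the ko difference was not the same in the depth sets. In the middle set the summed Zscan4 level was 27.6 and 28.0 CPM in wild type and 1.18 and 1.35 CPM in ko. In the low set it was 29.5, 34.3 and 36.4 CPM in wild type and 9.04, 7.99 and 8.19 CPM in ko. The ko mean was thus 4.56% of wild type in the middle set and 25.1% in the low set, and ko libraries of the sets did not overlap.

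Within the middle set all 6 tested members were lower in ko (31.9% of all tested genes were), with log2 fold changes from −5.43 ± 0.45 for Zscan4d to −1.89 ± 0.70 for Tmem92. Within the low set the 5 Zscan4 genes were lower in ko (30.8% of all genes were), from −2.08 ± 0.16 for Zscan4c to −1.87 ± 0.21 for Zscan4b. Tmem92 did not pass there (−0.85 ± 0.56; edgeR, adjusted p = 0.196). The difference between the sets itself passed the test for the 5 Zscan4 genes, higher in the low set beside 13.6% of all genes (26.8% called in either direction), and ranged from 1.95 ± 0.34 for Zscan4f to 3.44 ± 0.60 for Zscan4d on the log2 scale.

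The ko libraries of the sets differed more than the wild-type ones. Ko of the low set exceeded ko of the middle set by 2.16 to 3.78 on the log2 scale for the 5 Zscan4 genes, all called beside 23.5% of all genes. Between the same sets of wild type, only Zscan4a was called (0.51 ± 0.18), where 21.9% of all genes were higher. The high set of wild type lay below the low set for the 5 Zscan4 genes by 0.81 to 1.05, beside 26.6% of all genes lower. In ko the ES marker sum also differed between the sets, at 3370 and 3393 CPM in the middle-set libraries and 4708 to 4844 CPM in the low-set ones. In wild type the sum stayed between 4377 and 4536 CPM over all sets. The part of the ES marker sum in the Zscan4 differences was not tested.

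The add-back lines ask which differences are undone when ko cells regain Snf2h. No rise of a Zscan4 gene was called. The wild-type add-back libraries measured 5.11, 5.29 and 5.60 CPM summed over the 5 genes, and the mutant add-back libraries 4.08 and 4.27 CPM. These values lie below every wild-type library and between the middle-set and low-set ko libraries.

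Of the 6 tested members, 0 were called between the wild-type add-back and ko in edgeR, and 0 had an unadjusted p under 0.05, whereas 45.0% of all tested genes were called and 22.5% were higher in the add-back. DESeq2 also called 0. The log2 differences ran from −0.32 for Zscan4c (95% interval −1.41 to 0.77) to 0.40 for Zscan4d (−0.98 to 1.79). These intervals are wide and do not show that the levels were the same.

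Within the low set, where ko and the add-back had like depth, the intervals were narrower and all 6 differences were below 0. Zscan4c was at 2.15, 1.75 and 2.09 CPM in ko and at 1.02, 1.05 and 1.08 CPM in the wild-type add-back, a log2 difference of −0.92 ± 0.23 (edgeR, adjusted p = 0.00153). Zscan4f was at 1.86, 2.06 and 1.63 CPM in ko and at 0.766, 1.29 and 1.08 CPM in the add-back (−0.82 ± 0.24, adjusted p = 0.00629). The add-back libraries were below the ko libraries for both genes, without overlap. These 2 of 6 were called lower beside 28.8% of all genes. The intervals for Zscan4a (−1.06 to −0.03), Zscan4b (−1.17 to −0.01) and Zscan4d (−1.01 to 0.32) reach no higher than a log2 rise of 0.32.

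Against wild type, 4 of the 6 tested members were lower in the wild-type add-back, whereas 1.17% of all tested genes were lower and 1.60% were called in either direction. These 4 are Zscan4 copies and not independent, and the members were chosen with earlier results of these data known. Zscan4c differed by −2.64 ± 0.48 (edgeR, adjusted p = 0.00838), Zscan4f by −2.38 ± 0.48 (0.0142), Zscan4a by −2.16 ± 0.53 (0.0445) and Zscan4b by −2.14 ± 0.53 (0.0452). Zscan4d (−1.92 ± 0.60, adjusted p = 0.123) and Tmem92 (−1.54 ± 0.57, adjusted p = 0.191) did not pass. The add-back and wild-type libraries did not overlap for any of the 5 Zscan4 genes, and the share of all genes without such overlap was not counted.

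These calls over all libraries lay close to the threshold. Without any 1 of the 3 wild-type add-back libraries, 0 of the 6 were called, and without wild type 1, 2, 3, 6, 7 or 8, 2 were. Within the low set the 5 Zscan4 genes were called, from −2.34 ± 0.26 for Zscan4d to −3.01 ± 0.19 for Zscan4c (edgeR, adjusted p = 2.66e-10 for Zscan4c), beside 11.8% of all genes lower and 22.5% called. That count was 5 or 6 when any 1 of the 6 libraries compared was left out. The mean summed Zscan4 level of the add-back was 15.9% of wild type of the same depth.

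**Figure D3:**
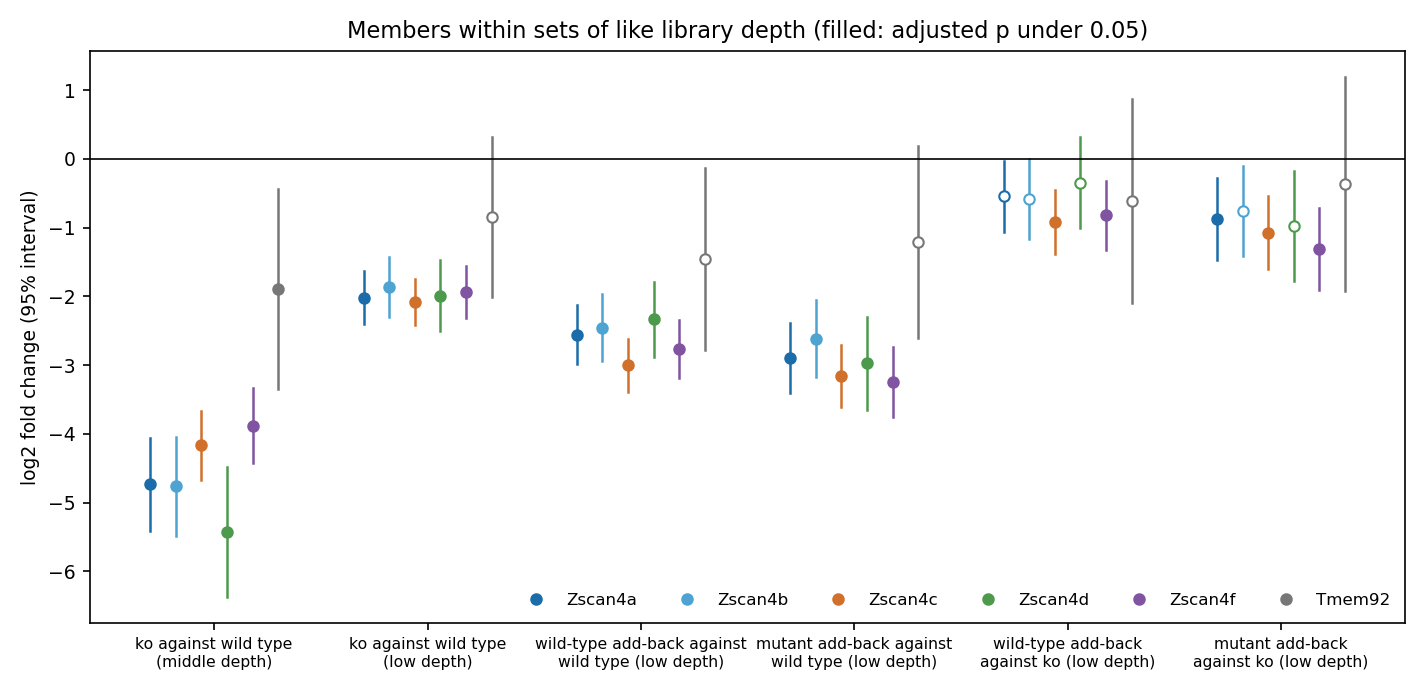
Log2 fold changes of the 6 tested members with 95% intervals in 6 comparisons within sets of like depth, filled where the adjusted p was under 0.05. The 5 Zscan4 genes lie below 0 in every comparison with wild type, and no member lies above 0 when an add-back is compared with ko.

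The Zscan4 genes were low in the mutant add-back as well. Over all libraries 5 of the 6 tested members were lower than in wild type, beside 23.5% of all genes lower and 45.5% called, with Zscan4f at −2.87 ± 0.60 (edgeR, adjusted p = 0.000741). Without either of the 2 mutant libraries, 3 were called. In libraries of like depth the 5 Zscan4 genes were lower than in wild type by log2 values from −2.62 for Zscan4b to −3.25 for Zscan4f, beside 30.1% of all genes lower. Against ko 0 of the 6 were called, as were 0.322% of all genes, and 0 had an unadjusted p under 0.05. Within the low set, Zscan4f (−1.31 ± 0.29), Zscan4c (−1.07 ± 0.26) and Zscan4a (−0.88 ± 0.29) were lower in the mutant add-back than in ko, beside 7.80% of all genes lower and 14.6% called. Without mutant library 1 only 1 member was called there. Between the wild-type and the mutant add-back 0 of the 6 were called and 0 had an unadjusted p under 0.05, beside 37.0% of all genes called. In the low set the order of the summed level was therefore wild type (29.5 to 36.4 CPM), ko (7.99 to 9.04), wild-type add-back (5.11 to 5.60) and mutant add-back (4.08 to 4.27). The absence of calls between the last pair is from the fit over all libraries, since the fit by set did not compare them.

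The members under the filter rested on few counts in the add-back libraries too. Tcstv3 had exactly 1 count in each of the 5 add-back libraries (0.0569 to 0.0674 CPM), below all wild-type libraries (0.129 to 0.636 CPM). In the low set with no filter it was lower in the wild-type add-back than in wild type (log2 −2.84 ± 0.75; edgeR, adjusted p = 0.00332). Zfp352 had 2, 3 and 4 counts and Tcstv1 5, 3 and 1 in the wild-type add-back, and neither was called against wild type or ko. Their ranges overlapped wild type and ko, and such low counts neither show nor exclude a difference. As a percent of the wild-type mean over all libraries, Zfp352 was at 77.2% in the add-back and 31.5% in ko, and Tcstv1 at 67.4% and 51.5%. Tcstv3 was at 17.1% and 34.1%. Against wild type of the low set, the add-back and low-set ko were at 65.9% and 31.6% for Zfp352 and 12.8% and 37.6% for Tcstv3. For Tcstv1 both were at 53.6%. Tmem92 had 0, 7 and 2 counts in the wild-type add-back.

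Several genes on either side of the cluster fell in ko and were higher again once Snf2h was returned. Zik1, a zinc finger repressor gene and the nearest tested gene before the cluster at 299 kb, was at 18.8 to 23.7 CPM in wild type, at 4.41, 3.29, 2.26, 2.44 and 2.91 in ko, and at 26.9, 23.5 and 26.9 in the wild-type add-back. It fell in ko by 2.82 ± 0.13 on the log2 scale and rose in the add-back by 3.06 ± 0.15 (edgeR, adjusted p = 4.68e-11). Over all libraries it was not called in the add-back against wild type (0.23 ± 0.13, edgeR, adjusted p = 0.430). Zfp551, the nearest tested gene after the cluster at 1010 kb, was at 2.80 to 3.83 CPM in wild type, 0.678 to 0.953 in ko and 2.63 to 3.00 in the wild-type add-back. Its rise in the add-back was 1.74 ± 0.20 (edgeR, adjusted p = 1.34e-06). The add-back libraries of Zfp551 lay below the low-set wild-type libraries (3.30 to 3.83 CPM). Both genes stayed low in the mutant add-back, with 1.76 and 1.84 CPM for Zik1 and 0.287 and 0.626 CPM for Zfp551.

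Of the 10 nearest tested genes on each side of the cluster, 12 of 20 were lower and 1 was higher in ko, 13 were higher and 1 was lower in the wild-type add-back than in ko, and 1 was called between the add-back and wild type. Of all tested genes 28.2% were lower and 26.8% higher in ko, 22.5% were higher in the add-back than in ko, and 1.60% were called between the add-back and wild type. The gene called there was Aurkc, the germ cell Aurora kinase, 3.79 Mb before the cluster, at 0.0607 CPM on average in ko, 1.06 in the add-back and 3.84 in wild type. Its wild-type libraries spanned 1.79 to 6.05 CPM, lowest in the low set. Zfp773 (3.10, 0.139 and 4.03 CPM in wild type, ko and the add-back), Zfp772 (4.94, 0.373 and 3.86) and Zfp418 (11.2, 2.24 and 11.8), all zinc finger genes 3.58 to 3.66 Mb before the cluster, fell in ko and rose in the add-back. They were not called between the add-back and wild type over all libraries. In the low set, Zfp772 was at 3.45 to 4.25 CPM in the add-back and 4.57 to 5.61 in wild type. Zfp773 was higher in the add-back there (3.83 to 4.38 against 2.14 to 3.61 CPM), and Zfp418 overlapped (11.2 to 12.1 against 9.89 to 11.5). The counts of neighbours called are from the fit over all libraries. Median log2 changes of the 20 neighbours were −0.42 in ko against wild type and 0.58 in the add-back against ko, and those 2 comparisons share the ko libraries.

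**Figure D4:**
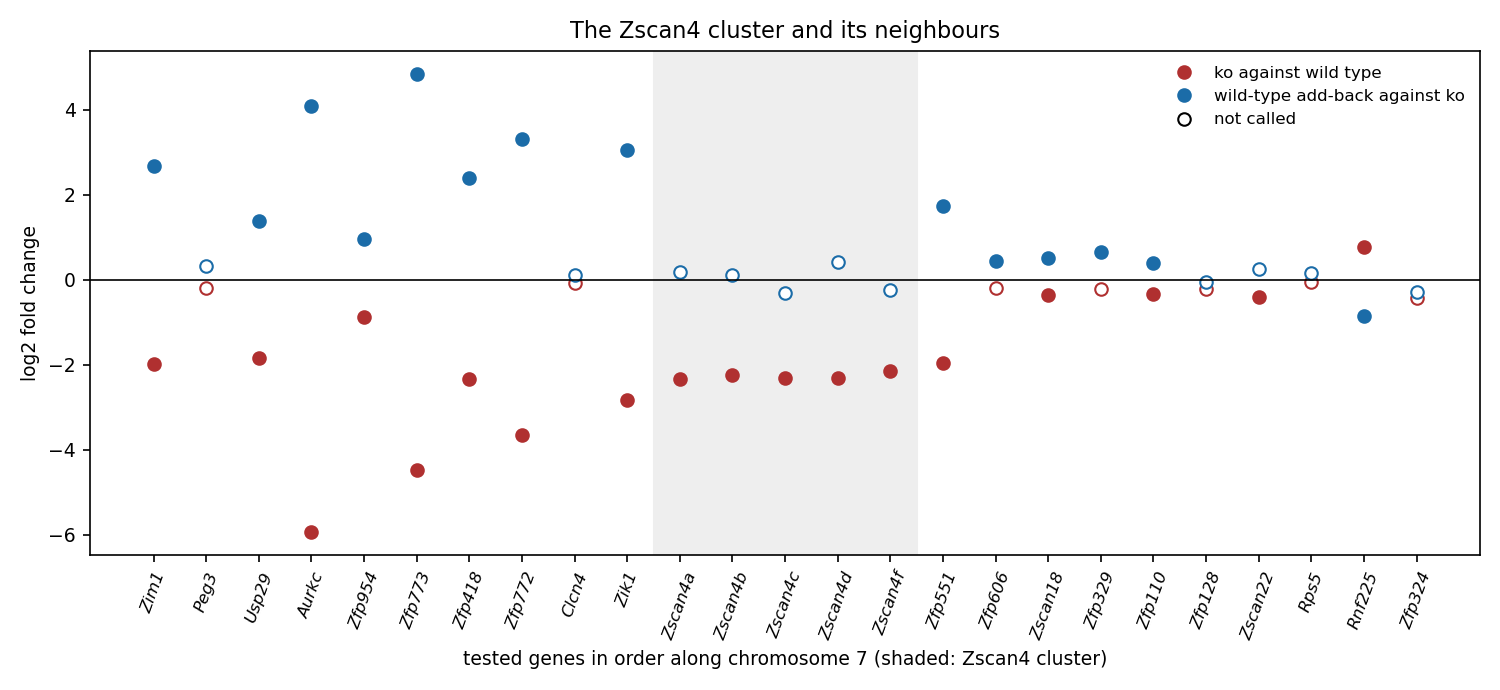
Log2 fold changes of ko against wild type and of the wild-type add-back against ko for the 10 tested genes on each side and the 5 Zscan4 genes (shaded), in order along chromosome 7 and not to scale, filled where the adjusted p was under 0.05. The Zscan4 genes fell in ko with no called rise in the add-back, whereas Zik1 and Zfp551 on either side fell and rose.

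A list of 59 other genes of the 2-cell stage had 50 in the table, of which 21 were tested. How alike the transcripts of these 21 are was not examined, so counts called among them need not be counts of independent genes. In ko 17 of these 21 were lower and 0 higher (28.2% and 26.8% of all genes), with a median log2 change of −1.38 against −0.01 over all tested genes. In the wild-type add-back 2 were higher and 2 lower than in ko, beside 45.0% of all genes called. Against wild type 3 were lower over all libraries (1.17% of all genes) and 16 within the low set (11.8% of all genes), with medians of −1.47 and −1.97. Examples were Gm4340 (13.8 CPM in wild type, 3.14 in ko and 4.55 in the add-back), Gm8300 (2.98, 0.757 and 0.830), Gm5662 (4.65, 1.23 and 1.27) and Gm2016 (5.36, 2.05 and 1.91). Over all libraries these examples were not called between the add-back and wild type (edgeR, adjusted p from 0.0614 to 0.136). Pramef12 was called higher in the add-back than in ko (57.7, 36.9 and 57.1 CPM, log2 0.63, edgeR adjusted p = 0.000268). So was Duxbl1, named after its values were seen (0.522, 0.0454 and 0.322 CPM, log2 2.62, edgeR adjusted p = 0.00365). Duxbl1 rested on 0 to 2 counts per library in ko and 3 to 6 in the add-back. Its low-set wild-type libraries were at 0.164 to 0.427 CPM. The Dux-like motif was in promoters of 5 of the 23 genes of this list that RefSeq held, beside 0.971% of all RefSeq promoters. The 5 were BB287469, Gm13040, Gm13043, Gm13057 and Gm4027. Whether their promoters are copies of one another was not examined.

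Genes known to activate the state were mostly lower in ko and some rose in the add-back. Dux itself was too low to test, with 1 to 8 counts per library in wild type, 0 to 2 in ko, 0 to 4 in the wild-type add-back and 0 in both mutant libraries. These are raw counts of libraries of unequal depth. In the low set Dux had 2, 1 and 3 counts in wild type, 2, 2 and 0 in ko, and 2, 0 and 4 in the wild-type add-back. A symbol Duxf3 was not matched in the table. Dppa2 and Dppa4 are partner DNA-binding proteins that act upstream of Dux. Dppa2 was at 54.2 to 103 CPM in wild type, at 18.7, 20.3, 37.6, 37.9 and 38.2 CPM in ko, and at 57.1, 56.8 and 57.4 CPM in the wild-type add-back. It fell by 1.34 ± 0.22 in ko and rose by 0.91 ± 0.26 in the add-back on the log2 scale (edgeR, adjusted p = 0.0084). The add-back libraries lay within the range of wild type, whose middle-set libraries had 55.2 and 54.2 CPM. Dppa2 was lower in the add-back than in wild type within the low set (−0.80 ± 0.12; edgeR, adjusted p = 0.000113).

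Dppa4 was not called over all libraries, in ko (−0.16 ± 0.11) or in the add-back against ko (0.34 ± 0.14; edgeR, adjusted p = 0.0606). By set, Dppa4 was lower in ko in the low set (−0.27 ± 0.06; adjusted p = 0.000498) and in the middle set (−0.30 ± 0.07; adjusted p = 0.00102), and in the low set it was higher in the add-back than in ko (0.18 ± 0.06; adjusted p = 0.011). Dppa3, a maternal factor, fell in ko and rose in the add-back (4.69, 2.24 and 5.57 CPM in wild type, ko and the add-back), as did the homeobox gene Obox6, named after its values were seen (0.770, 0.0445 and 0.339 CPM). Obox6 had only 0 to 2 counts per library in ko and 4 to 8 in the add-back. Rarg, a retinoic acid receptor, and Trp53, which encodes p53, fell in ko by 0.85 and 0.40 on the log2 scale and were not called in the add-back against either group over all libraries. Rarg was lower in the add-back than in wild type within the low set (−0.76 ± 0.13; edgeR, adjusted p = 0.000317). Tbx3 and Gata2, both transcription factors, were higher in ko (0.81 and 1.61) and lower in the add-back than in ko (−1.32 and −1.55). Of the 9 tested genes in this list of 13, 2 were higher and 6 lower in ko, and 3 were higher and 2 lower in the add-back than in ko. Of all tested genes 28.2% were lower in ko, and 22.5% were higher and 45.0% called in the add-back against ko, so the counts in the add-back are near the background.

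Known repressors of the state were mostly lower in ko and higher again in the wild-type add-back. Of 39 listed, all tested, 28 were lower and 2 higher in ko (median log2 −0.34), 25 were higher and 1 lower in the wild-type add-back than in ko (median 0.38), and 0 were called between the add-back and wild type over all libraries. Over all tested genes the shares were 28.2% lower in ko, 22.5% higher in the add-back than in ko and 1.60% called between the add-back and wild type, so the count of 0 is near the background. Within the low set 6 repressors were higher and 6 lower than in wild type, beside 22.5% of all genes called. Examples were Mycn (238, 92.3 and 296 CPM in wild type, ko and the add-back), the nucleolin gene Ncl (6006, 3828 and 5911), Zmym2 (245, 166 and 234), Max (124, 78.8 and 124) and the DNA methyltransferase gene Dnmt3a (199, 75.5 and 137), which was still lower than wild type within the low set (edgeR, adjusted p = 1.37e-08). Zfp42, a zinc finger gene active in naive ES cells, was not called in ko over all libraries (0.18 ± 0.10) or in the add-back against ko (0.11 ± 0.13). By set, Zfp42 was higher in ko in the low set (0.24 ± 0.06; edgeR, adjusted p = 0.00107) and lower in the middle set (−0.24 ± 0.07; adjusted p = 0.00469), and the difference between the sets was called (adjusted p = 0.000356).

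**Figure D5:**
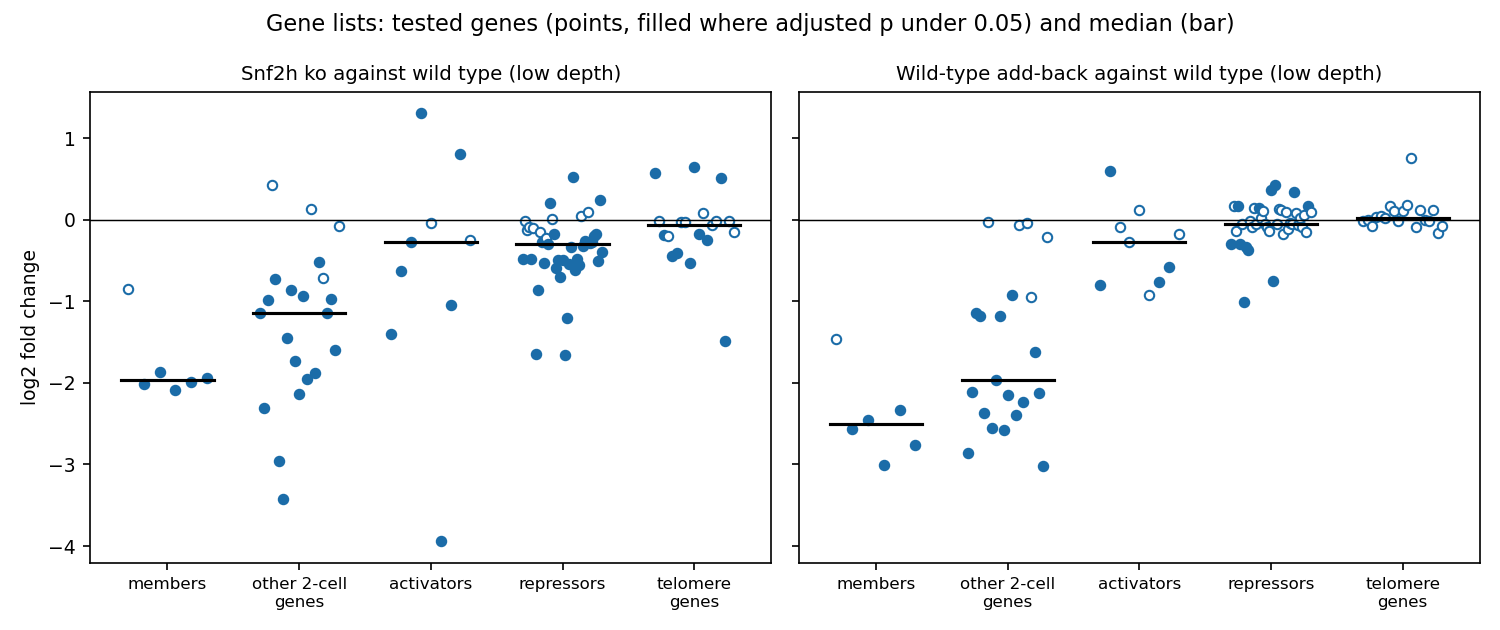
Log2 fold changes within the low set of the tested genes of 5 lists for ko (left) and the wild-type add-back (right), each set against wild type, filled where the adjusted p was under 0.05, with a bar at each median. The median of the members is −1.97 in ko and −2.51 in the add-back, that of the other 2-cell genes −1.14 and −1.97, and that of the repressors −0.30 and −0.05. Telomere genes centre near 0 in both.

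Fibroblast markers were higher in ko and in the mutant add-back. The summed level of 10 fibroblast markers was 83.9 to 96.0 CPM in ko, 66.3 to 77.6 in the mutant add-back, 22.6 to 44.0 in wild type and 22.4 to 24.0 in the wild-type add-back. Of 8 tested markers, 6 were higher and 1 was lower in ko than in wild type, and 6 were lower in the wild-type add-back than in ko. Of all tested genes 26.8% were higher in ko, and 45.0% were called between the add-back and ko. Of the defining markers, Lum had 0 or 1 counts and Dcn 0 to 3 counts in every library. In the low set the marker sum of the wild-type add-back lay below the wild-type libraries (31.7 to 33.0 CPM). The part of feeders in the Zscan4 differences was not tested.

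The genes whose pattern over the 18 libraries was most like the mean of the tested members were Gm21312 (Pearson r = 0.962 of log2 CPM), Gm4340 (0.956), Gm8300 (0.949), Gm20765 (0.944), Gm20767 (0.935), Gm2016 (0.931), Gm5662 (0.928), BB287469 (0.926), Lrrn4 (0.919) and Nsf (0.919). These correlations describe libraries that share groups and depth sets. Within the 11 libraries of the low set the 10 most alike were Slc29a1 (0.975), Clgn, Eif2s3y (0.968), Esx1, Ddx19a, Mpped2, Gm20765, Necab2, BB287469 and Gm4971 (0.955), and 2 genes were in both lists. Lrrn4, a leucine-rich repeat gene, was at 21.2, 11.6 and 14.3 CPM in wild type, ko and the wild-type add-back.

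Eif2s3y lies on the Y chromosome and encodes a translation initiation factor subunit, and 3 other Y-linked genes, Ddx3y, Uty and Kdm5d, were looked up after its values were seen. Eif2s3y was at 59.8 to 74.9 CPM in wild type, at 5.51, 5.26, 0.960, 0.741 and 1.39 CPM in ko, at 0.575, 0.492 and 0.337 CPM in the wild-type add-back and at 0.632 and 0.341 CPM in the mutant add-back. Ddx3y was at 43.5 to 53.2 CPM in wild type and at most 1.66 CPM in any other library, and Uty at 25.9 to 37.9 CPM and at most 0.735 CPM. Kdm5d had 0 to 4 counts in wild type and 0 to 2 in the other libraries, too few to tell the groups apart. Eif2s3y, Ddx3y and Uty were lower in the wild-type add-back than in wild type, with Ddx3y at −6.67 ± 0.42 on the log2 scale (edgeR, adjusted p = 8.44e-09). Low levels of these 3 transcripts set every ko and add-back library apart from every wild-type library. The chromosomes of these lines were not examined here, and the part of this difference in the low Zscan4 levels was not tested.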

How the data were processed

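Poly(A) RNA of 18 libraries was sequenced with a stranded kit, per the labels' protocols. The deposited values are whole-number counts of reads per gene, made by the authors from reads converted with bcl2fastq 2.17 and aligned with STAR to mm10, per the submitters' processing notes. Which counter, annotation and strand setting were used is not given in the sources used here. Totals of 15.3 to 37.0 M counts limit the precision of genes with few counts.

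Groups were taken from the labels, and the 3 depth sets from the totals (under 20 M, 20 to 30 M and above). The members and the gene lists were chosen with earlier results of these data known. Genes with enough counts (filterByExpr, minimum 10) were normalised by TMM and tested with edgeR 4.0.16's robust quasi-likelihood test in R 4.3.3, in 1 fit with a mean per group (6 comparisons) and 1 with a mean per group and set (10 comparisons). P-values were adjusted by Benjamini-Hochberg over 14901 genes and called under 0.05. CPM values are TMM-scaled, and RPKM divides them by the exonic length in the deposited table. The fits were tested on simulated counts with a fixed spread and no differences between depth sets. Only genes with higher counts were changed there, so this test does not cover set differences or genes with few counts. Alternatives were DESeq2 1.42.0, other normalisations and filters, a replicate block, summed libraries, single sets and each library left out. Same-numbered libraries did not deviate together (r from −0.20 to 0.27 for ko and wild type), and the main fits did not pair them. Depth sets differ within both groups, so this check cannot exclude pairing.

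Named were all members, Smarca5, and from each list up to 6 genes called between wild type and either ko or the wild-type add-back with at least 1 CPM in the higher group, by smallest adjusted p, with Duxf3, Dppa2, Dppa4 and Zfp42. The 10 most alike genes by Pearson r and the 10 nearest tested genes on each side of the cluster were also taken. Other genes were named after their values were seen. Sequences and positions are from RefSeq (GRCm38.p6), and 14882 of the tested genes matched it.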

Additional observations from a re-analysis of the deposited data

Results flagged for a closer look

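The fall in ko was of unequal size in the middle and the low depth set for the 5 measured Zscan4 genes, by a test of the difference in edgeR. The ko effect was less negative in the low set by 2.72 for Zscan4a, 2.90 for Zscan4b, 2.08 for Zscan4c, 3.44 for Zscan4d and 1.95 for Zscan4f on the log2 scale. The adjusted p ran from 4.43e-05 for Zscan4c to 0.000226 for Zscan4f, beside 26.8% of all tested genes called. The direction was the same in each of the 3 low-set against each of the 2 middle-set ko libraries. Leaving out any 1 of the 10 libraries compared left 5 members called. No library stood apart from its group in 20 groups of 4 to 10 values, all of wild type or ko, examined for single outlying values. The add-back groups were too small for this check. It also cannot flag 2 libraries that lie low together, as the middle-set ko libraries did.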

How the results depend on the processing

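The counts of members called kept within 1.5 times of their values in 173 alternatives and moved further in 19. Between ko and wild type 6 members were called with any library left out, and 2 when the libraries of a group and set were summed to 1 sample. Between the wild-type add-back and wild type the count of 4 became 2 with no filter and 0 with summed libraries, and ran from 0 to 4 with single libraries left out. Between the mutant add-back and wild type it became 0 with summed libraries and 3 to 5 with single libraries left out. With the low set alone, 3 members were called between the wild-type add-back and ko and 4 between the mutant add-back and ko. In the fit by set, the wild-type add-back against ko gave 4 with library size alone, and the mutant add-back against ko 1 to 3 with single libraries left out.

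Signs turned for single members in the wild-type add-back against ko. With the low set alone, and without the middle set, the log2 difference was −0.54 and −0.54 for Zscan4a, −0.58 and −0.59 for Zscan4b (called in edgeR with the low set alone), and −0.34 and −0.35 for Zscan4d. With single libraries left out it ran from −0.14 to 0.47 for Zscan4a, −0.20 to 0.38 for Zscan4b, −0.48 to 0.037 for Zscan4f and −1.68 to 0.36 for Tmem92. The low-set difference of Tmem92 between the mutant add-back and ko ran from −0.77 to 0.00041. With the replicate block, Zscan4c was at 0.36 and Zscan4f at 0.44, and 6, 0, 0, 5, 6 and 0 members were called in the 6 comparisons. The block changed 2 of these counts by 1 and no other. Counts over all genes moved by over 1.5 times in some settings. Summed libraries took ko against wild type from 8189 to 2408 and the wild-type add-back against ko from 6702 to 723, and the mutant add-back against wild type from 6787 to 1270. Wild-type add-back against wild type gave 238, with 478 by DESeq2, 1074 with the block, 4786 with the low set alone, 715 without the middle set, 3 with summed libraries and 44 to 260 with single libraries left out. Mutant add-back against ko gave 48, with 332 by DESeq2, 15 with only those groups, 3683 with the low set alone and 4 to 143 with single libraries left out. Wild-type against mutant add-back gave 5507, with 9119 under the block, 9744 with the low set alone and 233 with summed libraries. The causes were not tested.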

Other observations

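Zscan4 proteins are known for their part in telomere lengthening, and 19 of 20 listed telomere genes were tested. In ko 7 were lower and 2 higher than in wild type (median log2 −0.21), and in the wild-type add-back 6 were higher and 3 lower than in ko (median 0.13). Over all tested genes 28.2% were lower in ko, and 22.5% were higher and 45.0% called in the add-back against ko, so these counts are near the background. Between the add-back and wild type 0 were called over all libraries, beside 1.60% of all genes, and 0 within the low set, beside 22.5%. Tert, the catalytic subunit of telomerase, was at 19.4 CPM in wild type, 7.44 in ko, 20.1 in the wild-type add-back and 6.91 in the mutant add-back. The snoRNP genes Nhp2 (238, 182 and 264 CPM in wild type, ko and the wild-type add-back) and Gar1 (64.7, 51.3 and 76.7) fell in ko and rose in the add-back. Terf2ip and Acd (26.1, 36.9 and 25.4 for Acd), which encode proteins of the shelterin complex at chromosome ends, were higher in ko and lower in the add-back than in ko.

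Between Tcstv1 and Tcstv3 on chromosome 13 lie 3 tested genes, Gm21761, Gm20767 and AF067061. Their mean levels were 0.840, 0.857 and 0.389 CPM in wild type, 0.282, 0.247 and 0.149 in ko and 0.129, 0.215 and 0.0623 in the wild-type add-back. All 3 were lower in ko than in wild type (log2 −1.57, −1.82 and −1.38), beside 28.2% of all tested genes. None was called between the add-back and ko, beside 45.0% of all genes. AF067061 was also in the list of other 2-cell genes, and Gm20767 was among the genes most like the members over the 18 libraries. Zfp131, the nearest tested gene before Tcstv1, was at 48.9, 38.4 and 55.9 CPM and was called lower in ko and higher in the add-back than in ko.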
